A study of Saccharomyces cerevisiae with 12 samples.

Results

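The iron and copper uptake regulon of budding yeast (Saccharomyces cerevisiae) was followed as 32 genes listed by systematic name. They are the metalloreductase genes FRE1 to FRE8, the ferroxidase and permease genes FET3 and FTR1, the cell wall genes FIT1 to FIT3 and the siderophore transporter genes ARN1, ARN2, SIT1 and ENB1. To these are added the vacuolar genes FTH1, FET5, SMF3 and CCC1, the mitochondrial genes MRS4, ISU1 and ISU2, the heme oxygenase gene HMX1, the copper genes CTR1, ATX1 and CCC2, and the regulators AFT1, AFT2, TIS11 and CTH1. All 32 were found among the 7126 features of the table, and all 32 reached the mean of 1 RPKM (reads per kilobase of transcript and per mega-read of library) over the 12 samples that left 6124 features to test. Each has 1 exon in the R64 annotation, from which positions and strands are given.

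RNA sequencing was done on 12 samples, 3 in each of 4 groups, all untreated and grown in synthetic medium without leucine (SDC-Leu). The R288D group was a sac3-delta strain carrying the plasmid pRS315 with Sac3 R288D, and the sac3∆ group was a sac3-delta strain with the empty pRS315 vector. The cdk8∆ group was a cdk8-delta strain with the empty pRS315 vector, and the SAC3 WT group was a sac3-delta strain with pRS315 13MYC-SAC3. SAC3 encodes the scaffold of TREX-2, which couples transcription to mRNA export, and CDK8 (SSN3 in the table) encodes the kinase of the Mediator coactivator. SAC3 WT therefore shares the chromosomal sac3 deletion with R288D and sac3∆ and expresses a tagged SAC3 from a plasmid, while cdk8∆ keeps its own SAC3. In the comparison of cdk8∆ with SAC3 WT the kinase deletion cannot be told apart from the source of SAC3. The labels name a 13MYC tag for SAC3 WT and none for R288D. By the labels, the substitution cannot be told apart from the tag in the comparison of R288D with SAC3 WT. Whether the 3 samples of a group were separate cultures or clones is not given in the sources used here, so p-values measure only the spread between these samples.

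Yeast cells take up iron by a reductive route and by siderophores. Cell surface reductases of the Fre family reduce ferric iron and cupric copper, after which the multicopper oxidase Fet3 and the permease Ftr1 import the iron, and the copper that Fet3 needs enters through Ctr1 and is loaded by Atx1 and Ccc2. Fit mannoproteins of the cell wall hold siderophore iron, and the Arn family imports it. When iron is short, the transcription factors Aft1 and Aft2 switch these genes on through promoter sites with the core GCACCC, and TIS11 (also called CTH2) and CTH1 encode proteins that bind and destabilize mRNAs of iron-using proteins. When copper is short, the factor Mac1 acts on CTR1, FRE1 and FRE7, classically through the site TTTGCTC.

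Promoters of the genes on which the results below turn are shown first, because the calls between R288D and sac3∆ are counted by these sites further on. The 500 bases before each start codon were searched on both strands of the R64 genome for TGCACCC (the full Aft motif), its core GCACCC, which lies within every full match, and TTTGCTC. The full motif TGCACCC was present before 22 of the 32 members (68.8%) and before 2.32% of all 5986 promoters. Its core was present before 25 members (78.1%) and 7.62% of all promoters, and TTTGCTC before 4 members (CTR1, FRE1, FTR1 and ENB1, 12.5%) and 8.60% of all promoters. FTR1 and ENB1 hold both TTTGCTC and TGCACCC. A match is a description of letters and was not tested as a binding site. Capitals mark the motif or its reverse complement in the stretches below, each read 5′ to 3′ on the strand of its gene from the RefSeq R64 sequence. FET3, FIT2 and ENB1 (all lower in R288D than in sac3∆) carry the full Aft motif, and ENB1 also holds 1 TTTGCTC on the other strand, 310 to 304 bases before its start codon and outside the stretch shown:
FET3, chrXIII:388541-388607, plus strand: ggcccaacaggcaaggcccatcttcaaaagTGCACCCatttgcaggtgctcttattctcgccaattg
FIT2, chrXV:1059170-1059431, plus strand: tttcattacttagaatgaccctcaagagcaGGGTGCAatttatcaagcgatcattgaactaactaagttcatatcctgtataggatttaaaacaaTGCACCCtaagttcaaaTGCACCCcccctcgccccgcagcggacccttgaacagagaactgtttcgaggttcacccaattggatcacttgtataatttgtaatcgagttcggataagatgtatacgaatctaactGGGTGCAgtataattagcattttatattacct
ENB1, chrXV:21412-21534, minus strand: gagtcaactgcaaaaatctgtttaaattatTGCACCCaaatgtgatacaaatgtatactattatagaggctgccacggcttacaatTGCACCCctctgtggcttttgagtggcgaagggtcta

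CTR1 and FRE1 (both higher in R288D than in sac3∆) hold TTTGCTC and no GCACCC in the same window, with 2 and 3 matches, of which the stretches show 2 each:
CTR1, chrXVI:785844-785933, plus strand: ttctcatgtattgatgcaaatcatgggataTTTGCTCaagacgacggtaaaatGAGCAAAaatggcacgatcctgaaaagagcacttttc
FRE1, chrXII:568251-568334, plus strand: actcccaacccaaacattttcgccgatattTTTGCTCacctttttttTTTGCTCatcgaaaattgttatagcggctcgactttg

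The promoters of members that rose in R288D, sac3∆ and cdk8∆ alike are given for FRE6, SIT1, ARN1, FIT3 and SMF3, since they stand for the pattern shared by the mutants. FRE7, which also rose in all 3, holds none of the 3 motifs in its 500 bases:
FRE6, chrXII:39577-39643, minus strand: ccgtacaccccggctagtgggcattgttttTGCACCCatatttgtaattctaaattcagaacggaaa
SIT1, chrV:27439-27505, plus strand: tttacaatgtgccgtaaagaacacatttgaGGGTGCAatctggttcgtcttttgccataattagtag
ARN1, chrVIII:21195-21261, minus strand: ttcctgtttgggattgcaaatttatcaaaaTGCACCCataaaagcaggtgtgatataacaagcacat
FIT3, chrXV:1061203-1061370, minus strand: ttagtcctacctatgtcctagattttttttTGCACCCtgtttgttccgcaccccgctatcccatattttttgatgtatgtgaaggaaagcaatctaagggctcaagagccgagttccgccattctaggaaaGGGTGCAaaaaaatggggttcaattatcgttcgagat
SMF3, chrXII:212327-212393, minus strand: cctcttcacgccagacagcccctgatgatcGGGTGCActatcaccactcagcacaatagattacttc

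Read depth recovered from the table, summed over the 6162 features matched to the annotation of 7126 in all, was 16.18 to 22.44 M reads (mega-reads) per sample. SAC3 averaged 0.0458 ± 0.0416 RPKM in sac3∆, against 51.3 ± 2.32 in SAC3 WT, and SSN3 averaged 0.205 ± 0.0816 RPKM in cdk8∆, against 49.7 ± 0.0660 in SAC3 WT (SD, n = 3 each), so both deletions are as labelled. SAC3 averaged 63.7 ± 1.18 RPKM in R288D and 33.5 ± 0.347 in cdk8∆ (SD, n = 3 each), so its level also differed between R288D, cdk8∆ and SAC3 WT. Against SAC3 WT, 50.8% of tested features were called in R288D, 51.5% in sac3∆ and 62.1% in cdk8∆, so a single called gene is a common event in this series. The deposited RPKM use scaled library sizes. Dividing by the recovered reads instead moved the median log2 difference from SAC3 WT of all features by 0.14 in R288D, 0.15 in sac3∆ and 0.37 in cdk8∆. Below, a call is a limma adjusted p under 0.05 over all tested features, a difference is on the log2(RPKM + 1) scale with its standard error, which understates changes of scarce genes, and replicate values are in RPKM. A lower level in such bulk samples does not tell less RNA per cell from fewer cells that express the gene.

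In each mutant more members were above SAC3 WT than below it. In R288D 15 members rose, 4 fell and 13 were not called, against 26.3% of all features called higher and 24.4% called lower. In sac3∆ 21 rose, 2 fell and 9 were not called, against 27.4% and 24.1% of all features. In cdk8∆ 19 rose, 5 fell and 8 were not called, against 31.5% and 30.6% of all features. As shares of the 32 members, 46.9% rose in R288D, 65.6% in sac3∆ and 59.4% in cdk8∆.

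The median difference of the members from SAC3 WT was 0.17 in R288D, 0.37 in sac3∆ and 0.26 in cdk8∆, where the median of all tested features was 0.02, 0.04 and 0.01. With all sample medians set equal, 38.8% of all calls in R288D were higher in place of 51.8%, and 37.8% in place of 53.3% in sac3∆, and the members split into 15 higher and 6 lower in R288D, 16 and 3 in sac3∆ and 17 and 6 in cdk8∆. Per recovered read, the members split into 20 and 0, 24 and 2, and 28 and 4 in the same order. Of all calls on that scale 75.8%, 76.9% and 85.7% were higher, against 100%, 92.3% and 87.5% of member calls. On that scale the direction of member calls in cdk8∆ was thus close to that of all calls. With the deposited RPKM 79.2% of member calls in cdk8∆ were higher, against 50.7% of all calls. With sample medians set equal these were 73.9% and 42.9%.

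Of the 32 members 9 rose in all 3 mutants (FRE3, FRE6, FRE7, FIT3, ARN1, SIT1, SMF3, ISU2 and AFT2), a share of 28.1% against 9.52% of all features, and none fell in all 3. Of the 9, FRE6, ARN1, SIT1 and SMF3 kept all 3 calls under every alternative and with any 1 replicate left out, or 12.5% of members against 3.17% of all features, while the cdk8∆ calls of the other 5 each ended under at least 1. Called in opposite directions in different mutants were 6 members (FET3, FRE4, FIT2, ARN2, ENB1 and ISU1), or 18.8% against 12.1% of all features. Per recovered read, the R288D falls of FRE4, FIT2, ARN2 and ENB1 were not called and ISU1 rose in cdk8∆. CCC1 and CTH1 were called in no mutant. The 3 mutants were set against the same 3 SAC3 WT samples, so these shares are not independent of one another.

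**Figure D1:**
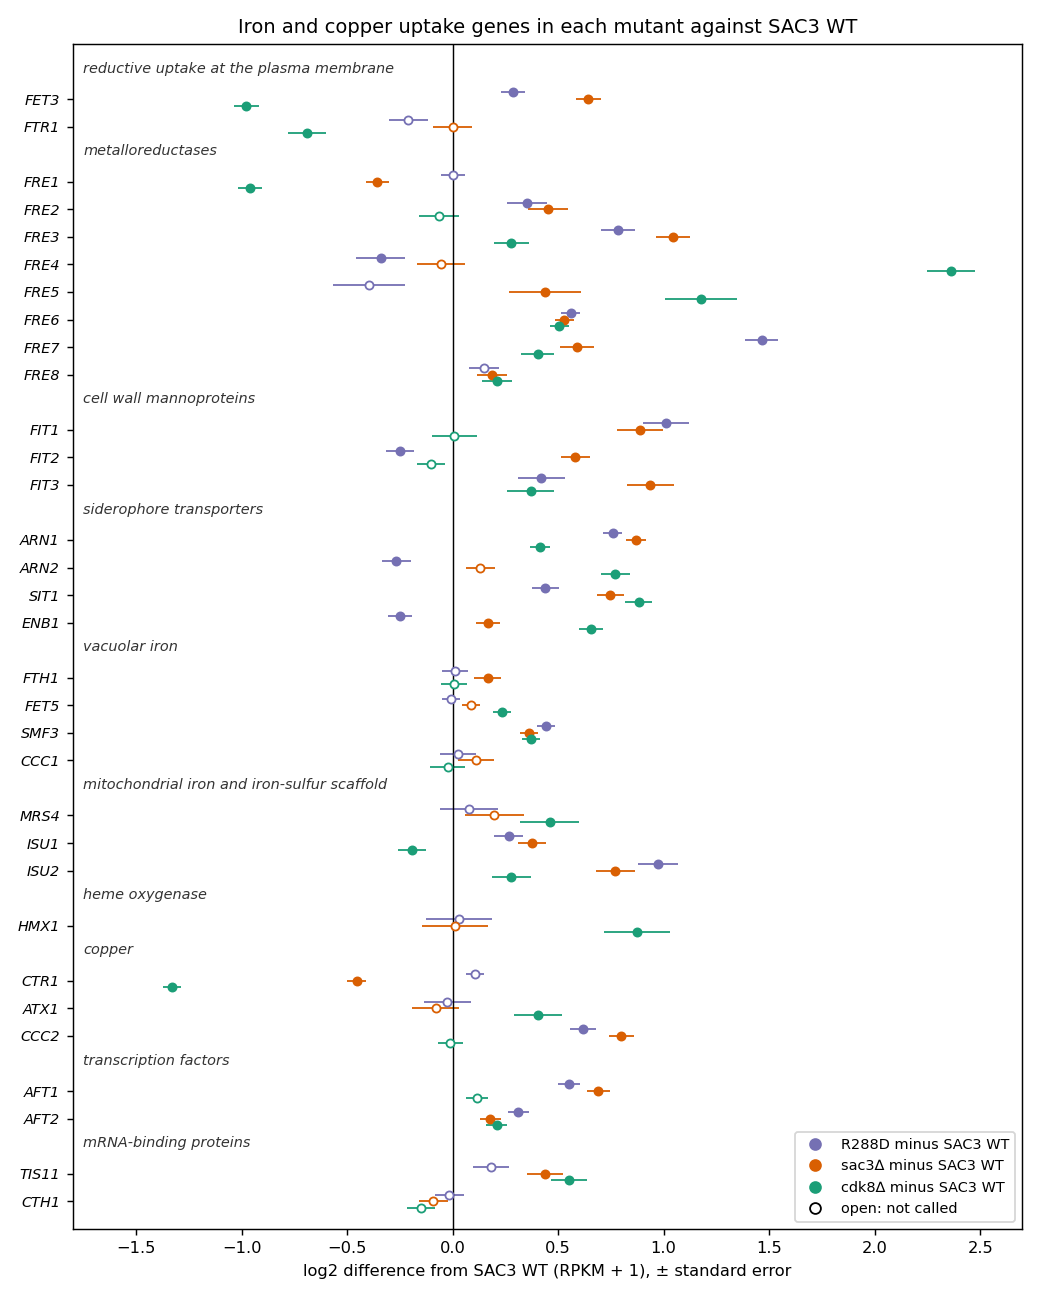
Difference of each member from SAC3 WT on the log2(RPKM + 1) scale (x axis) in R288D (purple), sac3∆ (orange) and cdk8∆ (green), with bars of 1 limma standard error and members grouped by role (y axis). Filled points are called and open points are not. FET3, FTR1, FRE1 and CTR1 lie left of 0 in cdk8∆, FRE4 lies at 2.36 in cdk8∆, and FRE7 lies farthest right among the R288D points, at 1.47.

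The high-affinity reductive pair parted between the mutants. FET3, the multicopper ferroxidase (YMR058W, chrXIII:388822-390732, plus strand), stood at 242, 234 and 278 RPKM in R288D, 319, 330 and 316 in sac3∆, 106, 105 and 101 in cdk8∆ and 202, 211 and 204 in SAC3 WT. The 4 groups did not overlap, with sac3∆ on top and cdk8∆ at the bottom. FET3 rose 1.22-fold in R288D (0.29 ± 0.06, limma adjusted p = 0.00156) and 1.56-fold in sac3∆ (0.64 ± 0.06, limma adjusted p = 3.83e-06). In cdk8∆ it fell to 0.506 times the SAC3 WT mean (-0.98 ± 0.06, limma adjusted p = 5.30e-08).

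FTR1, the iron permease that works with Fet3 (YER145C, chrV:460526-461740, minus strand), stood at 55.6, 41.0 and 54.6 RPKM in R288D, 55.8, 58.7 and 59.2 in sac3∆, 35.4, 35.6 and 35.6 in cdk8∆ and 57.5, 59.4 and 56.8 in SAC3 WT. The cdk8∆ samples lay below all others, while sac3∆ and SAC3 WT overlapped. It fell in cdk8∆ (-0.69 ± 0.09, limma adjusted p = 4.11e-05), to 0.613 times SAC3 WT. In sac3∆ the FTR1 difference was -0.00 ± 0.09 (limma adjusted p = 0.997) beside the rise of FET3, and in R288D it was -0.21 ± 0.09 (limma adjusted p = 0.0729), a value called with sample medians set equal (-0.28, limma adjusted p = 0.0237).

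Among the 8 metalloreductase genes, 4 rose, 1 fell and 3 were not called in R288D, 6 rose, 1 fell and 1 was not called in sac3∆, and 6 rose, 1 fell and 1 was not called in cdk8∆. The member that fell differed: FRE4 in R288D, and FRE1 in sac3∆ and cdk8∆. FRE1, the main cell surface reductase for iron and copper (YLR214W, chrXII:568567-570627, plus strand), stood at 101, 86.6 and 96.6 RPKM in R288D, 70.5, 75.7 and 74.8 in sac3∆, 47.6, 48.5 and 48.1 in cdk8∆ and 92.2, 95.2 and 96.2 in SAC3 WT. R288D overlapped SAC3 WT (0.00 ± 0.06, limma adjusted p = 0.979), whereas all sac3∆ samples and all cdk8∆ samples lay below it. FRE1 fell in sac3∆ (-0.36 ± 0.06, limma adjusted p = 0.000227) and in cdk8∆ (-0.96 ± 0.06, limma adjusted p = 4.26e-08).

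FRE4 (YNR060W, chrXIV:739951-742110, plus strand), a reductase gene linked to siderophore iron, carried the largest member difference from SAC3 WT and was scarce outside cdk8∆. It stood at 18.7, 20.1 and 18.6 RPKM in cdk8∆ against 3.15, 3.01 and 2.61 in SAC3 WT, and at 1.81, 2.25 and 2.22 in R288D and 2.81, 3.13 and 2.40 in sac3∆. All cdk8∆ samples lay far above every other sample, and the mean was 6.55 times that of SAC3 WT (2.36 ± 0.11, limma adjusted p = 1.14e-08). The fall in R288D (-0.34 ± 0.11, limma adjusted p = 0.0270) ended without R288D replicate 1 or SAC3 WT replicate 1 or 2 (limma adjusted p of 0.0674 to 0.0886). Per recovered read it was -0.23 (limma adjusted p = 0.115).

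FRE7, a reductase gene known to answer to copper (YOL152W, chrXV:40748-42610, plus strand), stood at 23.8, 23.1 and 25.9 RPKM in R288D, 11.9, 13.4 and 12.9 in sac3∆, 10.7, 10.9 and 11.6 in cdk8∆ and 7.97, 8.94 and 7.55 in SAC3 WT. R288D lay above all other samples, and sac3∆ and cdk8∆ both lay above SAC3 WT. The R288D mean was 2.98 times that of SAC3 WT (1.47 ± 0.08, limma adjusted p = 8.44e-08), the largest rise of a member in that mutant. FRE7 rose by 0.59 ± 0.08 in sac3∆ (limma adjusted p = 6.68e-05) and 0.40 ± 0.08 in cdk8∆ (limma adjusted p = 0.000795), and the cdk8∆ call ended under quantile normalization, at 0.02.

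FRE3 (YOR381W, chrXV:1055545-1057680, plus strand), which acts on siderophore iron, stood at 18.3, 21.3 and 19.3 RPKM in R288D, 24.6, 23.8 and 22.7 in sac3∆, 12.1, 14.7 and 13.8 in cdk8∆ and 10.7, 11.7 and 10.5 in SAC3 WT. Each mutant lay above SAC3 WT, and the sac3∆ mean was 2.16 times as high (1.05 ± 0.08, limma adjusted p = 1.41e-06), the largest rise of a member in sac3∆. The smaller rise in cdk8∆ (0.28 ± 0.08) ended without cdk8∆ replicate 2 (0.22, limma adjusted p = 0.0527) and turned to -0.037 under quantile normalization.

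FRE2 (YKL220C, chrXI:9091-11226, minus strand), the second surface reductase, is the near relative of FRE3, with 77.3% identity over aligned coding bases and a longest shared run of 34 bases, so some of their reads could be hard to assign. It stood at 9.95, 10.2 and 8.64 RPKM in R288D and 10.4, 10.6 and 10.0 in sac3∆, against 6.64, 8.02 and 7.23 in SAC3 WT. It rose by 0.35 ± 0.10 in R288D and 0.45 ± 0.10 in sac3∆, in both without overlap, though neither was called under quantile normalization (0.14 and 0.22). In cdk8∆ FRE2 averaged 6.93 ± 0.646 RPKM against 7.30 ± 0.692 in SAC3 WT (SD, n = 3 each), with overlap. That difference was called lower under quantile normalization (-0.56, limma adjusted p = 0.000340) and higher per recovered read (0.27, limma adjusted p = 0.0296).

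FRE6 (YLL051C, chrXII:37333-39471, minus strand), the vacuolar reductase, rose in every mutant. It averaged 69.9 ± 1.44 RPKM in R288D, 68.5 ± 3.22 in sac3∆ and 67.3 ± 0.732 in cdk8∆ against 47.1 ± 1.25 in SAC3 WT (SD, n = 3 each). Every mutant sample lay above every SAC3 WT sample, with rises of 0.56 ± 0.04, 0.53 ± 0.04 and 0.51 ± 0.04 in that order (limma adjusted p = 1.80e-06, 2.27e-06 and 1.48e-06).

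FRE5 (YOR384W, chrXV:1061564-1063648, plus strand), whose product has been found in mitochondria, was the scarcest member, with 23 to 261 recovered reads per sample. It stood at 0.664, 1.05 and 1.14 RPKM in R288D, 3.11, 2.19 and 2.15 in sac3∆, 4.41, 5.02 and 4.89 in cdk8∆ and 1.30, 1.49 and 1.89 in SAC3 WT. All cdk8∆ samples were highest, 3.06 times the SAC3 WT mean (1.18 ± 0.17, limma adjusted p = 8.76e-05). The rise in sac3∆ (0.44 ± 0.17, limma adjusted p = 0.0486) ended without any of sac3∆ replicates 1, 2 and 3 or SAC3 WT replicates 1 and 2 (limma adjusted p of 0.0509 to 0.186). In R288D it was called lower with sample medians set equal (-0.47, limma adjusted p = 0.0377).

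FRE8 (YLR047C, chrXII:239347-241407, minus strand), a less studied family member, averaged 27.1 ± 1.51 RPKM in R288D, 27.9 ± 1.97 in sac3∆, 28.3 ± 0.599 in cdk8∆ and 24.4 ± 1.95 in SAC3 WT (SD, n = 3 each). It was called in sac3∆ (0.19 ± 0.07), where the groups overlapped, and in cdk8∆ (0.21 ± 0.07). The sac3∆ call ended without sac3∆ replicate 1 or 2 or SAC3 WT replicate 1 or 3 (limma adjusted p of 0.0696 to 0.161), and the cdk8∆ call without cdk8∆ replicate 2 or 3 or SAC3 WT replicate 1 or 3 (limma adjusted p of 0.0516 to 0.0808).

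**Figure D2:**
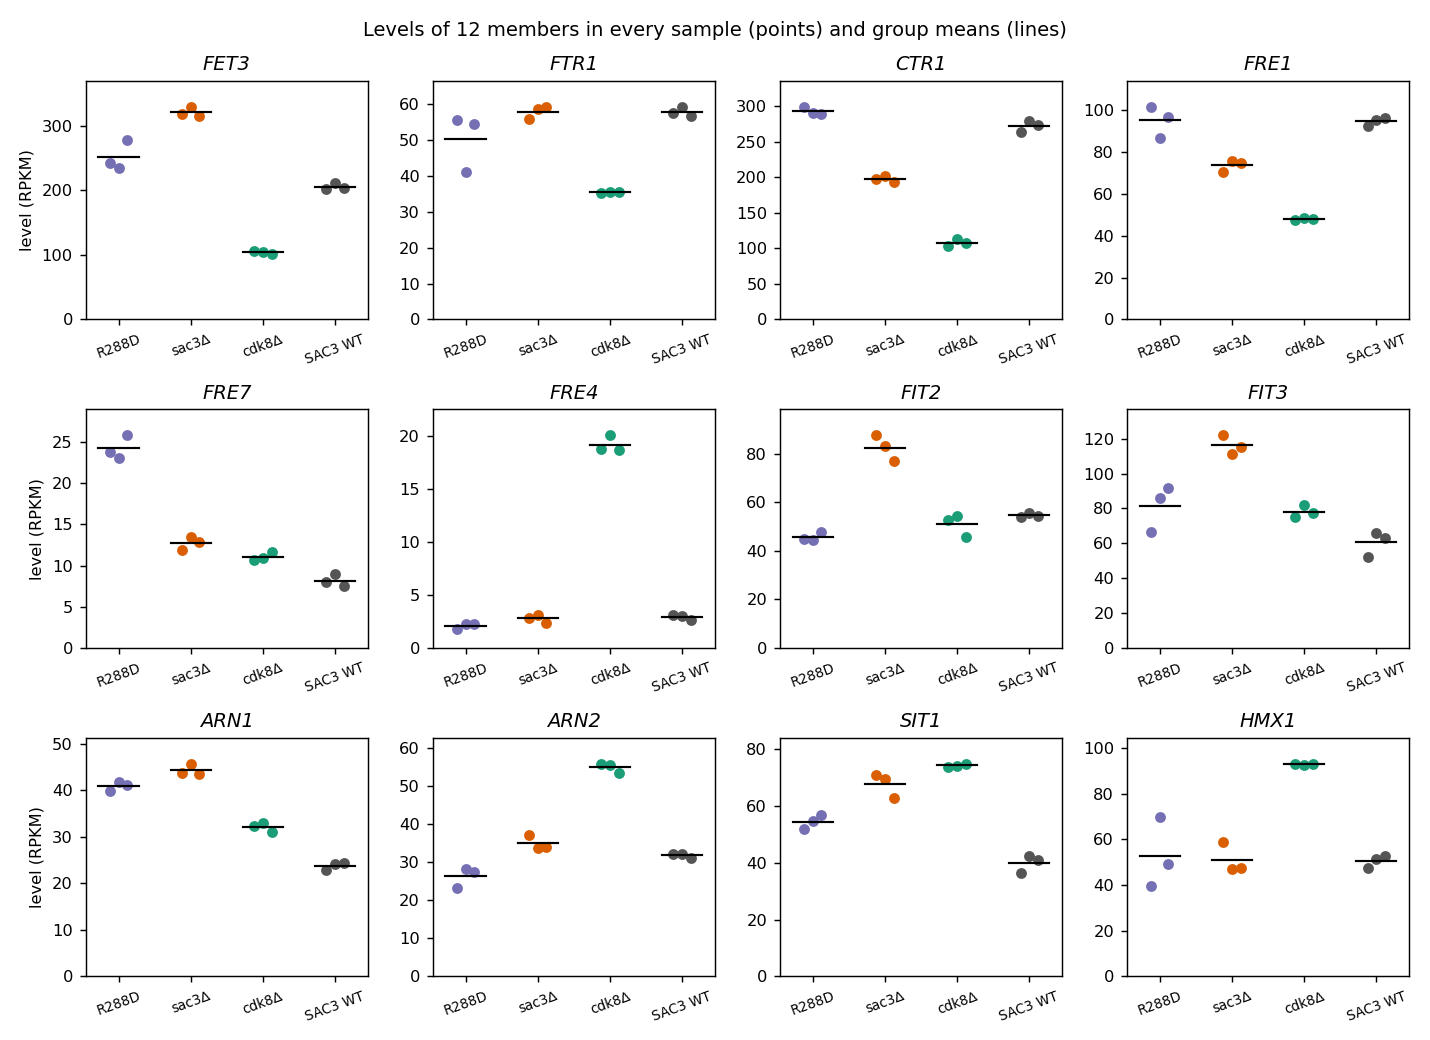
RPKM (y axis, from 0) of 12 members in every sample of R288D, sac3∆, cdk8∆ and SAC3 WT (x axis), with points for samples and lines for group means of 3. CTR1 and FRE1 are lower in sac3∆ and cdk8∆ than in R288D and SAC3 WT, FRE7 is highest in R288D, FRE4 and HMX1 are highest in cdk8∆, and FIT2 is highest in sac3∆.

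The 3 Fit genes, which encode GPI-anchored mannoproteins that retain siderophore iron at the wall, all rose in sac3∆ and did not move together elsewhere. FIT2 (YOR382W, chrXV:1059531-1059992, plus strand) stood at 44.9, 44.7 and 48.0 RPKM in R288D, 87.7, 83.0 and 76.8 in sac3∆, 52.7, 54.5 and 45.8 in cdk8∆ and 53.8, 55.8 and 54.5 in SAC3 WT. All sac3∆ samples lay above SAC3 WT (0.58 ± 0.07, limma adjusted p = 2.56e-05) and all R288D samples below it (-0.25 ± 0.07, limma adjusted p = 0.00918). The R288D call ended per recovered read, at -0.10 (limma adjusted p = 0.258).

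FIT1 (YDR534C, chrIV:1503314-1504900, minus strand) stood at 8.53, 10.0 and 9.55 RPKM in R288D, 9.14, 8.15 and 8.23 in sac3∆, 4.73, 4.15 and 3.67 in cdk8∆ and 3.70, 4.40 and 4.33 in SAC3 WT. It was 2.26 times SAC3 WT in R288D (1.01 ± 0.11, limma adjusted p = 1.38e-05) and 2.05 times in sac3∆ (0.89 ± 0.11, limma adjusted p = 3.40e-05), while cdk8∆ overlapped SAC3 WT and was called lower under quantile normalization (-0.51) and higher per recovered read (0.32). FIT3 (YOR383C, chrXV:1060441-1061055, minus strand) stood at 66.8, 86.2 and 91.8 RPKM in R288D, 122, 111 and 115 in sac3∆, 75.3, 81.8 and 77.3 in cdk8∆ and 52.2, 66.1 and 63.2 in SAC3 WT. Every mutant sample lay above every SAC3 WT sample, with rises of 0.42 ± 0.11 in R288D, 0.94 ± 0.11 in sac3∆ and 0.37 ± 0.11 in cdk8∆ (limma adjusted p = 0.00782, 2.82e-05 and 0.0121). The FIT3 call in cdk8∆ ended without SAC3 WT replicate 1 (0.27, limma adjusted p = 0.0560).

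The 4 siderophore transporter genes split into pairs. ARN1, for ferrichrome-type siderophores, and SIT1 (YEL065W, chrV:27657-29543, plus strand), for ferrioxamine B, rose in all 3 mutants, whereas ARN2, for triacetylfusarinine C, and ENB1 (YOL158C, chrXV:19491-21311, minus strand), for enterobactin, fell in R288D and rose in cdk8∆. ARN1 (YHL040C, chrVIII:19088-20971, minus strand) stood at 39.9, 41.7 and 41.1 RPKM in R288D, 43.7, 45.7 and 43.4 in sac3∆, 32.2, 32.9 and 31.0 in cdk8∆ and 22.9, 24.1 and 24.3 in SAC3 WT. No groups overlapped, and the means were 1.72, 1.86 and 1.35 times that of SAC3 WT in that order. The cdk8∆ rise was 0.42 ± 0.05 (limma adjusted p = 1.10e-05).

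SIT1 stood at 51.8, 54.6 and 56.9 RPKM in R288D, 70.8, 69.5 and 62.8 in sac3∆, 73.9, 74.1 and 74.9 in cdk8∆ and 36.5, 42.4 and 40.9 in SAC3 WT. All mutant samples lay above SAC3 WT, with differences of 0.44 ± 0.06, 0.75 ± 0.06 and 0.88 ± 0.06 in that order (limma adjusted p = 0.000147, 2.52e-06 and 2.89e-07).

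ARN2 (YHL047C, chrVIII:8351-10213, minus strand) stood at 23.4, 28.2 and 27.6 RPKM in R288D, 37.2, 33.8 and 34.0 in sac3∆, 56.0, 55.8 and 53.5 in cdk8∆ and 32.2, 32.2 and 31.2 in SAC3 WT. R288D lay below and cdk8∆ above all SAC3 WT samples, with a fall of -0.27 ± 0.07 (limma adjusted p = 0.00627) and a rise of 0.77 ± 0.07 (limma adjusted p = 1.57e-06). ENB1 stood at 49.9, 56.2 and 52.5 RPKM in R288D, 73.1, 72.7 and 66.9 in sac3∆, 101, 101 and 97.4 in cdk8∆ and 66.8, 61.5 and 61.0 in SAC3 WT. It fell by 0.25 ± 0.06 in R288D (limma adjusted p = 0.00298) and rose by 0.65 ± 0.06 in cdk8∆ (limma adjusted p = 1.34e-06), without overlap in either. Its small rise in sac3∆ (0.17 ± 0.06, limma adjusted p = 0.0273) ended without sac3∆ replicate 1 or 2 or SAC3 WT replicate 2 or 3 (limma adjusted p of 0.0850 to 0.0916). Per recovered read, neither ARN2 (-0.12) nor ENB1 (-0.10) was called in R288D.

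Of the vacuolar genes FTH1, FET5, SMF3 and CCC1, a group that leaves out the vacuolar reductase gene FRE6, all but SMF3 moved little. SMF3 (YLR034C, chrXII:210512-211933, minus strand), a vacuolar metal transporter known to rise in iron shortage, averaged 94.8 ± 2.86 RPKM in R288D, 89.8 ± 2.20 in sac3∆ and 90.1 ± 3.09 in cdk8∆ against 69.6 ± 1.5 in SAC3 WT (SD, n = 3 each). All mutant samples lay above SAC3 WT, by 0.44 ± 0.04, 0.36 ± 0.04 and 0.37 ± 0.04 (limma adjusted p = 7.17e-06, 2.56e-05 and 1.40e-05). FET5 and FTH1 encode the oxidase and permease of the vacuolar membrane, the counterparts of Fet3 and Ftr1. FET5 (YFL041W, chrVI:49139-51007, plus strand) rose in cdk8∆ (0.23 ± 0.04, limma adjusted p = 0.000563) with means of 69.6 ± 1.82 RPKM in cdk8∆ and 59.1 ± 0.924 in SAC3 WT (SD, n = 3 each). In R288D the FET5 difference was -0.01, and it was 0.14 and called per recovered read.

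FTH1 (YBR207W, chrII:635146-636543, plus strand) lay between 57.9 and 69.5 RPKM over all 12 samples. It was called in sac3∆ (0.17 ± 0.06, limma adjusted p = 0.0421), a call that ended without any 1 of the 6 sac3∆ and SAC3 WT replicates (limma adjusted p of 0.0562 to 0.122). CCC1 (YLR220W, chrXII:576825-577793, plus strand), the importer that fills the vacuole with iron, averaged 45.8 ± 3.06 RPKM in R288D, 49.0 ± 6.27 in sac3∆, 44.3 ± 2.78 in cdk8∆ and 45.0 ± 1.06 in SAC3 WT (SD, n = 3 each). Its groups overlapped in every comparison, and it was not called in any, though per recovered read it was called higher in sac3∆ (0.27) and cdk8∆ (0.35).

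In mitochondria, the paired scaffold genes ISU1 and ISU2 (YOR226C, chrXV:761614-762084, minus strand), on which iron-sulfur clusters are built, rose together in both SAC3 mutants. ISU2 stood at 113, 92.4 and 120 RPKM in R288D, 94.7, 94.8 and 91.1 in sac3∆, 66.4, 64.9 and 67.1 in cdk8∆ and 58.9, 57.2 and 47.7 in SAC3 WT. All mutant samples lay above SAC3 WT, with rises of 0.97 ± 0.09 in R288D, 0.77 ± 0.09 in sac3∆ and 0.28 ± 0.09 in cdk8∆ (limma adjusted p = 6.81e-06, 3.29e-05 and 0.0212). The cdk8∆ call of ISU2 ended without cdk8∆ replicate 1 or 3 or SAC3 WT replicate 3 (limma adjusted p of 0.0521 to 0.0974).

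ISU1 (YPL135W, chrXVI:297553-298050, plus strand) was the more abundant of the pair, at 430, 425 and 399 RPKM in R288D, 462, 472 and 422 in sac3∆, 303, 314 and 294 in cdk8∆ and 375, 315 and 355 in SAC3 WT. It rose by 0.27 ± 0.07 in R288D and 0.38 ± 0.07 in sac3∆ (limma adjusted p = 0.00616 and 0.000627). Its fall in cdk8∆ (-0.19 ± 0.07, limma adjusted p = 0.0254) turned to 0.18 under quantile normalization and to 0.19 per recovered read, both called. It also ended without cdk8∆ replicate 1 or 3 or SAC3 WT replicate 1 or 3 (limma adjusted p of 0.0611 to 0.110).

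MRS4 (YKR052C, chrXI:532550-533464, minus strand), a carrier of iron across the inner membrane, stood at 111, 117 and 103 RPKM in cdk8∆ against 78.2, 74.4 and 87.3 in SAC3 WT, above in every sample (0.46 ± 0.14, limma adjusted p = 0.0124). In R288D and sac3∆ its samples ranged from 69.6 to 108 RPKM and overlapped SAC3 WT. HMX1 (YLR205C, chrXII:552724-553677, minus strand), the heme oxygenase that frees iron from heme, stood at 93.2, 92.6 and 93.2 RPKM in cdk8∆ against 47.3, 51.3 and 52.6 in SAC3 WT. It rose 1.85-fold there (0.87 ± 0.16, limma adjusted p = 0.000445). In R288D it stood at 39.4, 69.6 and 49.4 RPKM and in sac3∆ at 58.8, 46.8 and 47.4, both overlapping SAC3 WT.

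The 3 copper genes went separate ways. CTR1, the plasma membrane copper importer (YPR124W, chrXVI:786208-787428, plus strand), stood at 299, 290 and 289 RPKM in R288D, 198, 202 and 194 in sac3∆, 103, 113 and 107 in cdk8∆ and 263, 279 and 274 in SAC3 WT. The groups did not overlap, and cdk8∆ lay lowest and sac3∆ next, as for FRE1. CTR1 fell in sac3∆ (-0.46 ± 0.04, limma adjusted p = 5.91e-06) and in cdk8∆ (-1.33 ± 0.04, limma adjusted p = 6.40e-10), to 0.728 and 0.396 times SAC3 WT. The R288D difference was 0.11 ± 0.04 (limma adjusted p = 0.0612), and it was called under quantile normalization (0.29).

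CCC2 (YDR270W, chrIV:1005675-1008689, plus strand), the Golgi pump that loads copper into Fet3, rose in both SAC3 mutants, as FET3 did. It stood at 27.7, 27.5 and 25.0 RPKM in R288D and 30.1, 29.1 and 32.2 in sac3∆, against 17.0, 17.2 and 17.0 in SAC3 WT, with no overlap. It rose by 0.62 ± 0.06 in R288D and 0.80 ± 0.06 in sac3∆ (limma adjusted p = 7.30e-06 and 1.05e-06). In cdk8∆ it averaged 16.9 ± 0.726 RPKM against 17.1 ± 0.116 in SAC3 WT (SD, n = 3 each) and was not called. Under quantile normalization it was called lower there (-0.27, limma adjusted p = 0.00185), and per recovered read higher (0.35, limma adjusted p = 0.000536). ATX1 (YNL259C, chrXIV:157644-157865, minus strand), the chaperone that passes copper to Ccc2, rose in cdk8∆ (0.40 ± 0.11, limma adjusted p = 0.00796), at 101, 104 and 95.6 RPKM against 73.7, 75.3 and 77.5 in SAC3 WT. It overlapped SAC3 WT in R288D and sac3∆.

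AFT1 (YGL071W, chrVII:372012-374084, plus strand), the main iron-sensing activator of these genes, rose in both SAC3 mutants. It stood at 51.0, 56.1 and 57.2 RPKM in R288D, 61.4, 60.1 and 59.5 in sac3∆, 39.6, 40.8 and 40.0 in cdk8∆ and 35.6, 39.3 and 36.2 in SAC3 WT. All mutant samples lay above SAC3 WT, by 0.55 ± 0.05 in R288D and 0.69 ± 0.05 in sac3∆ (limma adjusted p = 7.17e-06 and 1.30e-06), while the cdk8∆ difference of 0.12 ± 0.05 was not called (limma adjusted p = 0.0792) except per recovered read (0.49). AFT2 (YPL202C, chrXVI:168088-169338, minus strand), its paralog, averaged 39.8 ± 1.16 RPKM in R288D, 36.2 ± 1.72 in sac3∆ and 37.0 ± 1.13 in cdk8∆ against 31.9 ± 1.04 in SAC3 WT (SD, n = 3 each). It was called in all 3, at 0.31 ± 0.05, 0.18 ± 0.05 and 0.21 ± 0.05, and under quantile normalization no longer in sac3∆ (0.07) or cdk8∆ (0.09).

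TIS11 (YLR136C, chrXII:415801-416658, minus strand) rose in sac3∆ (0.44 ± 0.08, limma adjusted p = 0.00105) and cdk8∆ (0.55 ± 0.08, limma adjusted p = 0.000135). It stood at 34.8, 40.8 and 42.5 RPKM in R288D, 50.4, 48.6 and 42.3 in sac3∆, 49.1, 54.4 and 49.6 in cdk8∆ and 35.3, 32.4 and 35.7 in SAC3 WT, and R288D overlapped SAC3 WT. CTH1 (YDR151C, chrIV:764178-765155, minus strand), the related mRNA-binding gene, was not called in any comparison and averaged 78.2 ± 5.70 RPKM in R288D, 74.0 ± 2.97 in sac3∆, 71.1 ± 3.61 in cdk8∆ and 79.1 ± 6.10 in SAC3 WT (SD, n = 3 each). With sample medians set equal it was called lower in sac3∆ (-0.18, limma adjusted p = 0.0499) and cdk8∆ (-0.21, limma adjusted p = 0.0245), and per recovered read it was called higher in cdk8∆ (0.23, limma adjusted p = 0.00633).

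R288D and sac3∆ were then set against each other, which asks where a substituted Sac3 and no Sac3 differ. CTR1, FRE1 and FRE7 were higher in R288D, and FET3, FIT2, FIT3, ARN2, SIT1, ENB1 and FRE5 were lower. By role, 1 of the 3 copper genes was higher and ATX1 and CCC2 were not called, 2 of the 8 metalloreductase genes were higher and 1 lower, and 2 of the 3 Fit genes and 3 of the 4 siderophore transporter genes were lower. Members made up 10 of the 84 features called in this comparison, or 11.9% of them. Of all tested features 1.37% were called (1.05% higher and 0.327% lower), and of the members 31.2%. The 7 members called lower were among 20 features called lower in all. The median absolute difference between R288D and sac3∆ was 0.17 over members and 0.07 over all features.

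Among the higher genes, the R288D mean of FRE7 was 1.90 times that of sac3∆ (0.88 ± 0.08, limma adjusted p = 7.97e-05), that of CTR1 1.48 times (0.56 ± 0.04, limma adjusted p = 2.50e-05) and that of FRE1 1.29 times (0.36 ± 0.06, limma adjusted p = 0.00652). In all 3, every R288D sample lay above every sac3∆ sample. For CTR1 and FRE1 it was sac3∆ that lay apart from SAC3 WT, and for FRE7 both mutants were above SAC3 WT, with R288D further. Of 19 copper-handling genes outside the members, 1 was higher in R288D than in sac3∆, 0 were lower and 18 were not called. The 1 called gene, described because of its values, is IRC7. IRC7, a known target of Mac1 with 1 TTTGCTC before its start codon, stood at 118, 93.9 and 104 RPKM in R288D, 72.7, 77.9 and 80.7 in sac3∆, 74.1, 81.0 and 75.3 in cdk8∆ and 91.1, 102 and 111 in SAC3 WT. It was higher in R288D than in sac3∆ by 0.44 (limma adjusted p = 0.0264) and fell by 0.39 in both sac3∆ and cdk8∆ (limma adjusted p = 0.00278 and 0.00192).

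Among the lower genes, the R288D mean of FIT2 was 0.556 times that of sac3∆ (-0.83 ± 0.07, limma adjusted p = 3.71e-05), that of ENB1 0.746 times (-0.42 ± 0.06, limma adjusted p = 0.00249), that of FET3 0.782 times (-0.36 ± 0.06, limma adjusted p = 0.00790) and that of ARN2 0.754 times (-0.40 ± 0.07, limma adjusted p = 0.0101). Every R288D sample lay below every sac3∆ sample for these 4 genes and for SIT1 (-0.31 ± 0.06, limma adjusted p = 0.0342), FIT3 (-0.52 ± 0.11, limma adjusted p = 0.0458) and FRE5 (-0.84 ± 0.17, limma adjusted p = 0.0325). For FET3, SIT1 and FIT3 both mutants were above SAC3 WT, and for FIT2 and ENB1 they lay on opposite sides of it.

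Several of these calls depended on single libraries. The call of SIT1 ended without sac3∆ replicate 1 or 2 or R288D replicate 1 or 3 (limma adjusted p of 0.0532 to 0.157), that of FIT3 without any sac3∆ replicate or R288D replicate 1 (limma adjusted p of 0.0999 to 0.176), that of FRE5 without any sac3∆ replicate or R288D replicate 1 or 3 (limma adjusted p of 0.0536 to 0.157) and that of ARN2 without sac3∆ replicate 1 (limma adjusted p = 0.0587). The count of lower members was 3 without sac3∆ replicate 1, 4 without sac3∆ replicate 2 or R288D replicate 1, and 9 at most. With only the R288D and sac3∆ samples in the fit, 17 features were called in all, of which 2 members were higher and 1 lower, and CTR1, FRE7 and FIT2 were the members called under each alternative and with any 1 replicate left out.

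**Figure D3:**
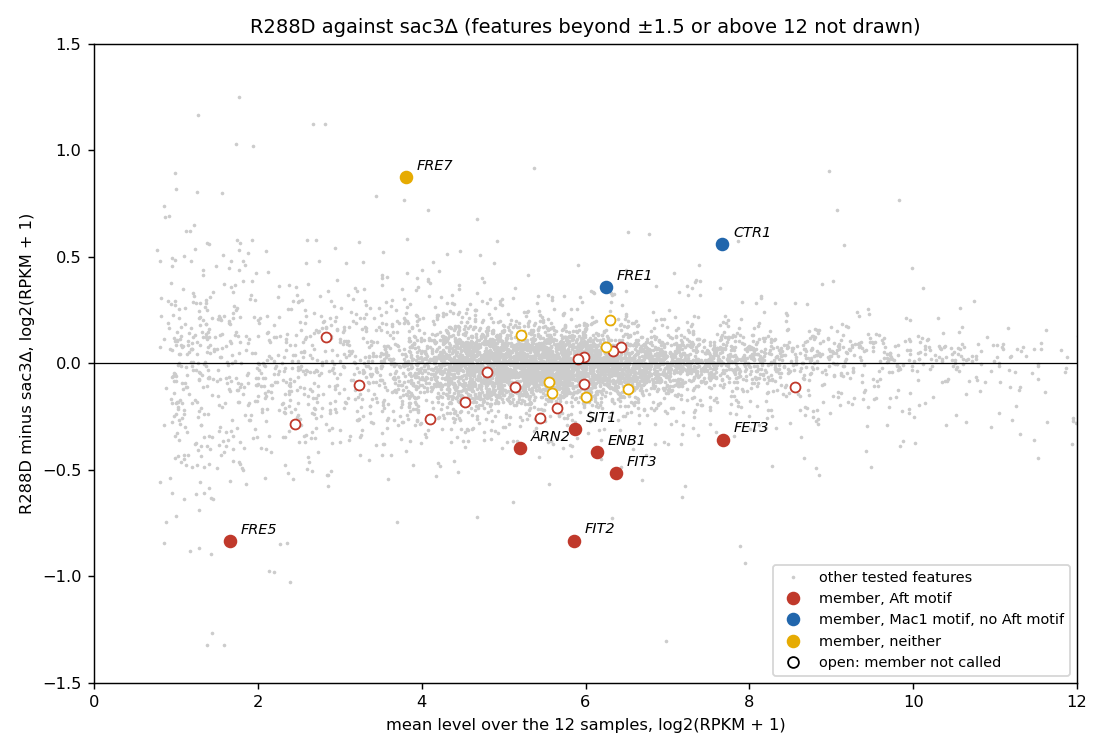
R288D minus sac3∆ on the log2(RPKM + 1) scale (y axis) against the mean level over the 12 samples (x axis), with members coloured by promoter motif (red for TGCACCC, blue for TTTGCTC without TGCACCC, yellow for neither) and other tested features in grey. The 7 called members below 0 are all red, including ENB1, which holds both motifs, and the 3 above 0 are blue (CTR1, FRE1) or yellow (FRE7). Only FIT2, CTR1 and FRE7 kept their calls under each alternative and with any replicate left out.

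Counted by promoter motif, of the 22 members with TGCACCC, 0 were higher in R288D than in sac3∆, 7 were lower and 15 were not called, with a median of -0.20. FTR1 and ENB1 are counted here although they also hold TTTGCTC, and ENB1 was lower and FTR1 not called. The members with TTTGCTC and no TGCACCC were CTR1 and FRE1, both higher, and among the 8 with neither motif FRE7 was higher. Of the members called here, only CTR1, FRE7 and FIT2 kept their calls under each alternative and with any 1 replicate left out. FIT3 and FRE5 are read in opposite directions from 1 shared stretch between them, so their motifs are the same letters. Among the 113 other tested genes with TGCACCC, 1 was higher and 1 lower, with a median of -0.03, and among the 484 with TTTGCTC alone 6 were higher and 2 lower. Against SAC3 WT, the 22 Aft-motif members divided into 11 higher and 4 lower in R288D, 16 and 0 in sac3∆ and 15 and 3 in cdk8∆. The 8 members with neither motif divided into 4 and 0, 5 and 0, and 4 and 0 in the same order. FTH1, MRS4 and CTH1 among them hold the core GCACCC without the full motif. Whether the rises depend on the motif was not tested. Of the 113 other genes with TGCACCC, 31.9%, 34.5% and 41.6% were higher and 22.1%, 22.1% and 32.7% lower.

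The SAC3 mutants were also compared with cdk8∆, in fits where 63.7% (R288D) and 64.1% (sac3∆) of all features were called. In R288D 13 members were higher than in cdk8∆, 10 were lower and 9 were not called, against 32.3% of all features higher and 31.4% lower. In sac3∆ 15 were higher, 7 were lower and 10 were not called, against 32.9% and 31.2%. FET3 and FTR1 were higher than in cdk8∆ in both, and of the 3 copper genes 2 were higher and ATX1 was lower in both. CTR1 was 2.72 times the cdk8∆ mean in R288D (1.44 ± 0.04, limma adjusted p = 2.19e-10) and 1.84 times in sac3∆ (0.87 ± 0.04, limma adjusted p = 1.06e-08). FET3 was 2.42 times the cdk8∆ mean in R288D (1.26 ± 0.06, limma adjusted p = 5.49e-09) and 3.09 times in sac3∆ (1.62 ± 0.06, limma adjusted p = 7.35e-10).

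FTR1, FRE1, CCC2, FIT1, AFT1, ISU1, ISU2, FRE2, FRE3 and ARN1 were also higher in both SAC3 mutants than in cdk8∆. Lower in both were FRE4, FRE5, ARN2, ENB1, HMX1, ATX1 and FET5. FRE4 led these, with -2.70 ± 0.11 in R288D and -2.42 ± 0.11 in sac3∆ (limma adjusted p = 3.04e-09 and 7.09e-09). SIT1, TIS11 and MRS4 were lower in R288D than in cdk8∆ (-0.44, -0.37 and -0.38) and not called between sac3∆ and cdk8∆ (-0.13, -0.11 and -0.26). Between sac3∆ and cdk8∆, SIT1 was called lower with sample medians set equal (-0.17), under quantile normalization (-0.18) and per recovered read (-0.35), MRS4 under quantile normalization (-0.36) and per recovered read (-0.48), and TIS11 per recovered read (-0.33). The MRS4 call ended without R288D replicate 1 or 3 or cdk8∆ replicate 1 or 2 (limma adjusted p of 0.0688 to 0.124).

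FIT2, FIT3 and FTH1 were higher in sac3∆ than in cdk8∆ (0.68, 0.57 and 0.16), and FRE7 was higher in R288D than in cdk8∆ (1.06). The FTH1 call ended without any 1 sac3∆ or cdk8∆ replicate (limma adjusted p of 0.0570 to 0.108), and that of FET5 between sac3∆ and cdk8∆ without cdk8∆ replicate 1 (limma adjusted p = 0.0531). Under quantile normalization FRE7 was called higher in sac3∆ than in cdk8∆ (0.31), and between R288D and cdk8∆ FIT2 was called lower (-0.18) and AFT2 higher (0.13). Per recovered read the median of all features shifts by -0.22 for both SAC3 mutants against cdk8∆. The members then split into 11 higher and 16 lower in R288D, and 14 higher and 15 lower in sac3∆. Of all calls on that scale 25.8% (R288D) and 27.3% (sac3∆) were higher, against 40.7% and 48.3% of member calls. FRE6 and FTH1 turned negative on that scale against cdk8∆ in both mutants.

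Many members lie close to chromosome ends. Within 50 kb of an end were 14 of the 32 (43.8%), among them FRE2 to FRE7, FIT1 to FIT3, FET5 and all 4 siderophore transporter genes, against 9.77% of other features with a known position. FRE3, FIT2, FIT3 and FRE5 are neighbours near 1 end of chromosome XV. In cdk8∆ 11 of the 14 rose and 0 fell, with a median difference from SAC3 WT of 0.41. Of the 18 members elsewhere, 8 rose and 5 fell (FET3, FTR1, FRE1, CTR1 and ISU1), with a median of 0.06.

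Other features within 50 kb of an end were 43.5% higher and 26.5% lower in cdk8∆, with a median of 0.12, and those elsewhere were 30.8% higher and 32.5% lower, with a median of -0.00. In sac3∆ 11 of the 14 end-near members rose and 0 fell, while other features near an end were 27.0% higher and 24.2% lower. In R288D 8 rose and 4 fell, against 25.2% and 24.7% of other features near an end. Of the 10 members called between R288D and sac3∆, 7 lie near an end, 1 higher (FRE7) and 6 lower. Other features near an end were 0.72% higher and 0.54% lower in that comparison. Among the 6 lower members, the calls of SIT1, FIT3, FRE5 and ARN2 depended on single libraries, as given above.

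**Figure D4:**
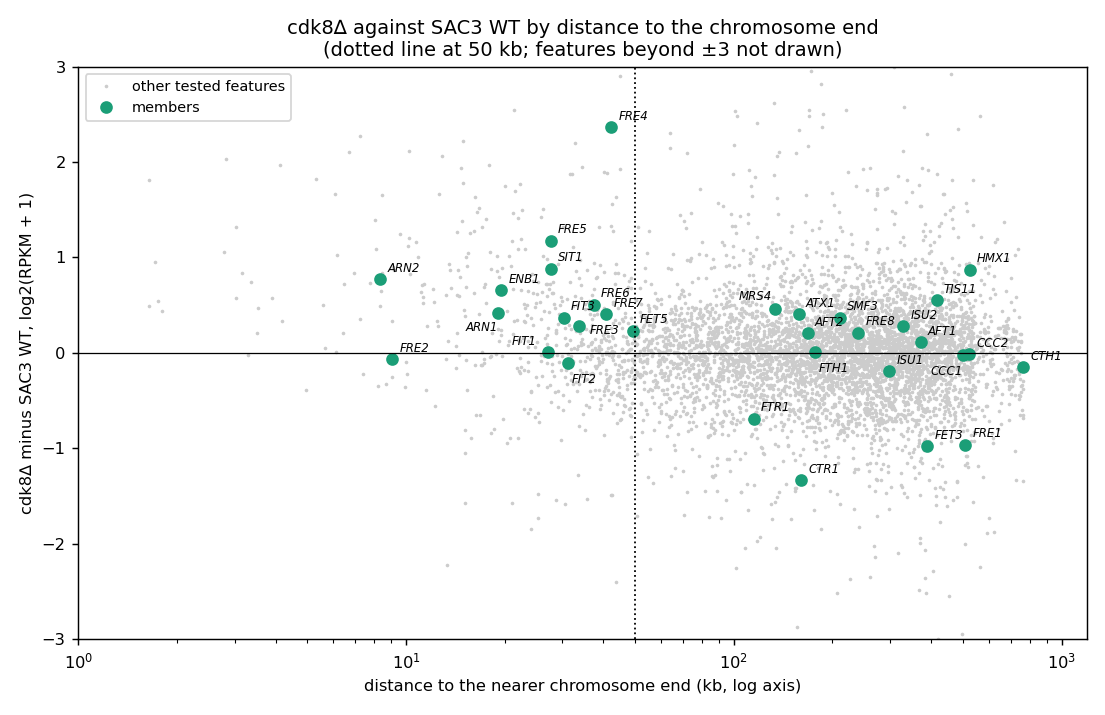
cdk8∆ minus SAC3 WT on the log2(RPKM + 1) scale (y axis) against the distance to the nearer chromosome end in kb (x axis, log scale), with members named in green and other tested features in grey. Left of the dotted line at 50 kb no member was called lower, and the 5 members called lower lie to its right.

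Genes that use iron or handle it after uptake were counted beside the members, in lists that hold none of them. Of all tested features, 26.3% were called higher and 24.4% lower in R288D, 27.4% and 24.1% in sac3∆, and 31.5% and 30.6% in cdk8∆. Of 24 genes for iron-using enzymes, 6 rose and 11 fell in R288D, 4 rose and 10 fell in sac3∆, and 5 rose and 13 fell in cdk8∆. Standard errors of the list genes named here were 0.04 to 0.09. YHB1, the flavohemoglobin gene, fell in R288D (-1.59), sac3∆ (-1.98) and cdk8∆ (-1.58). BIO2, the iron-sulfur biotin synthase gene, fell in R288D (-0.94), sac3∆ (-1.02) and cdk8∆ (-0.24). OLE1, the di-iron fatty acid desaturase gene, fell alike in the 3 mutants (-0.78, -0.81 and -0.76 in the same order). ERG25, a di-iron sterol oxidase gene, fell in R288D (-0.19) and cdk8∆ (-1.35). ACO1, mitochondrial aconitase, rose in R288D (0.29) and sac3∆ (0.39) and fell in cdk8∆ (-0.91).

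Of 8 heme synthesis genes, 0 rose and 5 fell in each SAC3 mutant, and 2 rose and 1 fell in cdk8∆. HEM3 (porphobilinogen deaminase) fell in R288D (-0.39) and sac3∆ (-0.43), HEM13 (coproporphyrinogen oxidase, also counted among the iron-using enzymes) fell in both (-0.48 and -0.42), and HEM15 (ferrochelatase) fell in R288D (-0.30), sac3∆ (-0.39) and cdk8∆ (-0.21). HEM1 (0.16) and HEM14 (0.17) rose in cdk8∆, and HEM1 fell in sac3∆ (-0.14).

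Of 18 genes of mitochondrial iron-sulfur assembly, 3 rose and 7 fell in R288D, 2 rose and 7 fell in sac3∆, and 7 rose and 5 fell in cdk8∆. NFS1, the cysteine desulfurase gene, fell in R288D (-0.30) and sac3∆ (-0.37), while ISA1, a late-acting assembly gene, rose by 0.62 and 0.64. MRS3, the paralog of MRS4, rose by 0.32 and 0.42 in R288D and sac3∆ and fell in cdk8∆ (-0.20). In cdk8∆ the genes with the lowest adjusted p were MGE1 (-0.64), ACP1 (-0.59) and IBA57 (0.70). IBA57 also rose in R288D (0.31). MGE1 averaged 255 ± 10.9 RPKM in R288D and 252 ± 4.25 in sac3∆ against 300 ± 19.4 in SAC3 WT (SD, n = 3 each). Of 10 cytosolic iron-sulfur assembly genes, 2 rose and 1 fell in each SAC3 mutant, NAR1 (0.48 in R288D and 0.44 in sac3∆), DRE2 (0.39 and 0.36) and LTO1 (-0.24 and -0.33). In cdk8∆ 4 rose and 2 fell, with CFD1 (0.67), CIA2 (0.66) and NAR1 (0.38) first. DRE2 was among the 2 that fell there (-0.22).

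Of 7 genes that restrain Aft1 or signal iron status, 0 rose and 4 fell in R288D, 1 rose and 3 fell in sac3∆, and 3 rose and 1 fell in cdk8∆. GRX3, a monothiol glutaredoxin gene, fell in R288D (-0.40) and sac3∆ (-0.42) and rose in cdk8∆ (0.26). GSH2, whose product completes glutathione, fell by 0.36 in both SAC3 mutants and fell in cdk8∆ (-0.10). GSH1, of the step before, fell in R288D (-0.21) and sac3∆ (-0.20). GSH1 (0.31) and the iron-responsive factor gene YAP5 (0.50) rose in cdk8∆. FRA1 rose in sac3∆ (0.19).

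Of 9 other genes linked to low iron, 5 rose and 0 fell in R288D, 6 rose and 2 fell in sac3∆, and 4 rose and 5 fell in cdk8∆. PRY1 rose in R288D (0.81) and sac3∆ (0.59) and fell in cdk8∆ (-0.95), and PCL5 did likewise (0.30, 0.32 and -0.30). VHT1, the biotin importer gene, rose by 0.23, 0.29 and 0.85 in R288D, sac3∆ and cdk8∆, and COT1 by 0.28, 0.25 and 0.44. BNA2, of nicotinate synthesis, fell in sac3∆ (-0.42) and rose in cdk8∆ (1.66).

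Of 19 other copper-handling genes tested, 5 rose and 3 fell in R288D, 4 rose and 5 fell in sac3∆, and 7 rose and 6 fell in cdk8∆. CUP1-1 and CUP1-2, a pair of identical metallothionein copies, were below the filter. SOD1, the copper and zinc superoxide dismutase gene, fell in R288D (-0.22), sac3∆ (-0.48) and cdk8∆ (-1.23), and CCS1, its copper chaperone, fell in R288D (-0.28) and sac3∆ (-0.33). SMF1, a broad metal transporter gene, fell in R288D (-0.73) and sac3∆ (-0.78) and rose in cdk8∆ (0.24). SLF1, linked to copper tolerance, rose in R288D (0.47) and sac3∆ (0.36) and fell in cdk8∆ (-0.80), where CTR2, the vacuolar copper transporter gene, rose by 0.42. The counts of all these lists stand beside 50.8%, 51.5% and 62.1% of all features called in either direction, and nothing was tested for the lists as such. Of the 18 mitochondrial assembly genes 8, 9 and 6 were not called in R288D, sac3∆ and cdk8∆, and of the 10 cytosolic ones 7, 7 and 4. These 2 lists were therefore called about as often as all features or less often.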

How the data were processed

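RNA was sequenced from 12 yeast samples, 3 per group. The deposited values are RPKM, and the submitters' processing notes name TopHat2 2.0.9, HTSeq 0.5.4p3, edgeR, limma, R 3.0.1 and the R64 build without their roles. The strand setting is not given in the sources used here. No annotated gene overlaps a member.

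From the value steps, reads were recovered for 6162 features matched to the annotation of 7126 in all; of values below 300 reads, 99.34 to 99.67% came out whole to within 0.1 of a read. Scaled over recovered library size was 0.967 to 0.991 in R288D, 0.969 to 0.999 in sac3∆, 1.14 to 1.18 in cdk8∆ and 0.864 to 0.892 in SAC3 WT, which was inferred here.

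Features that averaged 1 RPKM or more were fitted as log2(RPKM + 1) with limma 3.58.1 in R 4.3.3, with a mean per group over all 12 samples, 8 residual degrees of freedom, a mean trend, two-sided tests and Benjamini-Hochberg adjustment over 6124 features per comparison. The fit was tested on simulated data. Alternatives were other pseudocounts, filters and scalings, only the groups compared, no mean trend, a replicate block and leaving out each replicate; the fit per recovered read was added after the data were seen.

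Members and lists were chosen with earlier results of these data known. Besides the members, SAC3, SSN3 and, per list and comparison with SAC3 WT, up to 3 called genes with the lowest adjusted p are named. Promoters of members called alike in all 3 mutants are shown, at most 6 by their smallest difference; those of FET3, FIT2, ENB1, CTR1 and FRE1, and the gene IRC7, were chosen after their values were seen.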

Additional observations from a re-analysis of the deposited data

How the results depend on the processing

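Of 121 calls of members over 6 comparisons, 95 were kept under every alternative in which the member was tested, other than the fit per recovered read, leaving out replicates included. Of these, 11 belong to the 4 members (FRE2, FRE4, FRE5 and FIT1) that a mean of at least 10 RPKM leaves untested. Signs changed for 10 values with medians set equal, none called before or after, for 10 under quantile normalization and for 25 per recovered read, of which 7 and 11 were called neither before nor after. The others under quantile normalization were those of cdk8∆ minus SAC3 WT for FRE3 (-0.037), FIT1 (-0.51) and ISU1 (0.18). Per recovered read they were FET5 (0.14) for R288D minus SAC3 WT, FRE2 (0.27), FIT2 (0.27), CCC1 (0.35), ISU1 (0.19), CCC2 (0.35) and CTH1 (0.23) for cdk8∆ minus SAC3 WT, FRE6 (-0.20), FTH1 (-0.061) and CTH1 (-0.16) for sac3∆ minus cdk8∆, and FRE6 (-0.18), FTH1 (-0.23), SMF3 (-0.16) and AFT2 (-0.12) for R288D minus cdk8∆. That scaling multiplies all RPKM of a sample by the same factor before 1 RPKM is added, so scarce features shift less than others. Lower members then numbered 0 in R288D against SAC3 WT, 15 in sac3∆ against cdk8∆ and 16 in R288D against cdk8∆. In the same order 75.8%, 27.3% and 25.8% of all calls were higher, against 100%, 48.3% and 40.7% of member calls. Lower members in R288D against sac3∆ numbered 1 with only those groups compared, where fewer samples enter, and 3 to 9 when each replicate was left out. Replicate numbers did not pair the samples: over 18 same-numbered pairs the correlation of deviations was -0.29 to 0.16, with 2 over 0.1. With the replicate block, members split into 15 higher and 4 lower in R288D, 19 and 2 in sac3∆ and 19 and 5 in cdk8∆ against SAC3 WT, and 3 and 5 for R288D against sac3∆. Of all features 49.1%, 50.4%, 60.8% and 1.03% were called in these fits, in the same order. Depth limits FRE5 (23 to 261 reads) and FRE4 (from 65 reads) most.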
